A study of Homo sapiens with 2 samples.

Results

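Members of the ATG8 family and autophagy receptors were examined in HMC3, an established cell line of human microglia, with or without recombinant human periostin (rhPOSTN). The 7 genes were selected by name, 4 for ATG8 proteins (GABARAP, GABARAPL1, GABARAPL2 and MAP1LC3B) and 3 for receptors (SQSTM1, NBR1 and OPTN), out of 11943 protein-coding genes listed. GABARAPL2 was picked because its values were higher after rhPOSTN than in PBS libraries 1 and 2, so its values are a description and it was not tested between the groups. All cells were labelled wild type and microglia. The PBS group received the vehicle and the rhPOSTN group received periostin, a matricellular protein that binds integrins, at a single dose and duration. Each group comprised 3 libraries, and the sources do not say that these came from separate cultures, so p-values measure only the spread between libraries, which may be technical.

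All levels are FPKM, that is fragments divided by transcript length in kilobases and by the mapped fragments of the library, which allows genes of different length to be compared. Summed FPKM ranged from 184122 to 195494 per library, and the read depth is unknown because FPKM holds no counts. PBS library 3 stood apart. It correlated with the other libraries across genes at 0.913 to 0.940 on the log2(FPKM + 1) scale, and it lay outside the range of the other 5 libraries in 74.4% of tested genes. The 13 mitochondrially encoded genes made up 1.48% of its summed FPKM and 4.95% to 7.77% of that of the others. Of 17 microglial and macrophage markers only 4 were listed. TREM2 was at 2.91 to 3.84 FPKM, CD68 at 4.57 to 16.2 FPKM and CD14 at 0.979 to 2.32 FPKM over the 6 libraries. The defining microglial markers AIF1, CX3CR1, P2RY12, TMEM119 and CSF1R were not among the 4 and were not analysed here. Of 16 markers of other cell types 9 were listed, with a summed level of 378 to 602 FPKM in the PBS group and 359 to 416 FPKM in the rhPOSTN group. VIM (168 to 210 FPKM), KRT18 (60.4 to 90.2 FPKM) and COL1A1 made up most of every sum. No other listed gene of this set exceeded 9.43 FPKM. The highest of these sums was that of PBS library 3, where COL1A1, a fibrillar collagen chain, reached 324 FPKM against 98.3 to 135 FPKM elsewhere. The part of these differences in the results below was not tested, and log2 differences and the counts of their signs are given with and without PBS library 3.

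Autophagy encloses cytoplasmic material in a double membrane, the autophagosome, and delivers it to the lysosome. ATG8 proteins are small ubiquitin-like proteins that are cleaved by ATG4 proteases and conjugated to the lipid phosphatidylethanolamine of that membrane. Autophagy receptors bind cargo, often through ubiquitin, and bind lipidated ATG8 proteins through a short LC3-interacting motif. In microglia the pathway handles phagocytosed material, protein aggregates and damaged organelles.

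The ATG8 genes resemble each other, so the last 60 coding bases of GABARAPL2 are shown with the aligned bases of the other 3 genes to show how far reads of this gene can be told from theirs. Capitals mark bases that differ from GABARAPL2, and the reference is the GENCODE 29 annotation of GRCh38.
GABARAPL2: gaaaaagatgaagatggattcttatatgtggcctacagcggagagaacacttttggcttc
GABARAP: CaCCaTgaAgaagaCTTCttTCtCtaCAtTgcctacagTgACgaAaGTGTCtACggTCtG
GABARAPL1: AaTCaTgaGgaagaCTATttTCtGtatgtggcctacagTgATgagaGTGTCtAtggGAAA
MAP1LC3B: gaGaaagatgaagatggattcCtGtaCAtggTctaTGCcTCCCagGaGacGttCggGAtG
In this stretch GABARAP differed from GABARAPL2 at 29 bases, GABARAPL1 at 25 and MAP1LC3B at 20. GABARAP, GABARAPL1 and GABARAPL2 each had 351 coding bases without the stop codon, and MAP1LC3B had 375. Coding identity was highest between GABARAP and GABARAPL1 (76.6%), followed by GABARAP and GABARAPL2 (62.1%) and GABARAPL1 and GABARAPL2 (61.8%). The longest run of identical bases between any pair of ATG8 transcripts was 18, between GABARAPL2 and MAP1LC3B.

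Sharing with other genes differed among the members. Of the 3031 windows of 100 bases in GABARAPL2 transcripts, 0 occurred in a transcript of another gene, on either strand. For GABARAP 42.9% of the windows did, all in the clone-named genes AC120057.2 and AC120057.3. The shares were 17.3% for SQSTM1, which overlaps MRNIP and MGAT4B on the opposite strand, 4.20% for NBR1, 3.70% for MAP1LC3B, 2.53% for GABARAPL1 and 0.873% for OPTN. By the coordinates of the tables, GABARAPL1, GABARAPL2, NBR1 and OPTN overlapped no listed gene. On the opposite strand MAP1LC3B overlapped FBXO31 over 8148 bases, introns included, and SQSTM1 overlapped MRNIP over 2946 and MGAT4B over 555 bases. Values of GABARAP, SQSTM1 and MAP1LC3B are therefore less certain than the others. For SQSTM1 and MAP1LC3B it is not stated whether the abundance estimates used the strand. GABARAP overlaps AC120057.3 on the same strand, so use of the strand would not separate these. FBXO31 stayed at 1.43 to 4.94 FPKM and MRNIP at 1.34 to 1.83 FPKM, below their partners in every library, and MGAT4B ranged from 11.2 FPKM in PBS library 1 to 19.7 FPKM in PBS library 3.

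GABARAPL2, also known as GATE-16, is an ATG8 protein of the GABARAP branch with roles in Golgi transport and autophagosome maturation (ENSG00000034713.7_2, chromosome 16 from 75600249 to 75611779 on GRCh37, plus strand). Its level, given here as for all genes in the order of libraries 1, 2 and 3, was 18.6, 17.6 and 35.8 FPKM after PBS and 32.9, 35.7 and 33.0 FPKM after rhPOSTN. PBS libraries 1 and 2 were low, whereas PBS library 3 lay just above the highest rhPOSTN library, so the groups overlapped. The mean was 24.0 ± 10.2 FPKM (SD, n = 3) after PBS and 33.9 ± 1.61 FPKM (SD, n = 3) after rhPOSTN, a ratio of 1.41. Against the mean of PBS libraries 1 and 2 (18.1 FPKM), the rhPOSTN mean was 1.87-fold higher and PBS library 3 was 1.97-fold higher. On the log2(FPKM + 1) scale, on which all log2 differences here are rhPOSTN minus PBS, the difference was 0.55 ± 0.26 (SE). Without PBS library 3 it was 0.87 ± 0.08 (SE). That is the comparison from which GABARAPL2 was picked, so no inference can be drawn from this SE. The vehicle libraries thus differed from each other by as much as the groups did.

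GABARAP, the founding member of its branch, was first described as a protein that binds the GABA-A receptor (ENSG00000170296.9_3, chromosome 17 from 7143333 to 7146089, minus strand). Its level was 37.9, 36.9 and 24.8 FPKM after PBS and 44.9, 45.2 and 37.4 FPKM after rhPOSTN. PBS library 3 was the lowest of the 6, and rhPOSTN library 3 lay between PBS libraries 1 and 2, so the groups overlapped. The means were 33.2 ± 7.31 and 42.5 ± 4.44 FPKM (SD, n = 3 each), and the log2 difference was 0.37 ± 0.19 (SE; adjusted p = 0.951, limma). Without PBS library 3 it was 0.18 ± 0.10 (adjusted p = 0.613, limma). PBS library 3, which was high for GABARAPL2, was thus low for GABARAP.

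By its coordinates, introns included, GABARAP shares 2344 of its 2757 bases (85.0%) with AC120057.3, a clone-named gene on the same strand with no role annotated here. AC120057.3 was at 29.7, 33.9 and 23.2 FPKM after PBS and 14.4, 19.3 and 65.4 FPKM after rhPOSTN. It was lower than in every PBS library in rhPOSTN libraries 1 and 2 and highest in rhPOSTN library 3. The summed level of both genes was 67.6, 70.8 and 48.0 FPKM after PBS and 59.3, 64.5 and 102.8 FPKM after rhPOSTN. GABARAP held 51.6% to 56.1% of this sum in the PBS group, 75.8% and 70.1% in rhPOSTN libraries 1 and 2, and 36.4% in rhPOSTN library 3. The split of reads between overlapping genes was made in the abundance estimation, so the rhPOSTN values of GABARAP cannot be told apart from that split.

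MAP1LC3B encodes LC3B, the ATG8 protein most often used to follow autophagosomes (ENSG00000140941.12_2, chromosome 16 from 87417601 to 87438385, plus strand). Its level was 23.3, 23.9 and 17.5 FPKM after PBS and 21.7, 23.2 and 22.3 FPKM after rhPOSTN. PBS library 3 was the lowest, and all 3 rhPOSTN libraries lay below PBS libraries 1 and 2. The log2 difference was 0.07 ± 0.14 (SE; adjusted p = 0.960, limma) and changed sign to -0.07 ± 0.07 (SE; adjusted p = 0.735, limma) without PBS library 3.

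GABARAPL1 is the closest relative of GABARAP and was described as an oestrogen-induced gene (ENSG00000139112.10_3, chromosome 12 from 10365057 to 10375729, plus strand). Its level was 4.77, 18.6 and 9.59 FPKM after PBS and 16.2, 3.70 and 3.38 FPKM after rhPOSTN. Each group held at least 1 high and 1 low library, with the highest 3.89-fold above the lowest after PBS and 4.81-fold after rhPOSTN. The log2 difference was -0.58 ± 0.65 (SE; adjusted p = 0.951, limma), and -0.59 ± 0.77 (SE; adjusted p = 0.806, limma) without PBS library 3. The spread within groups, 1.00 on the log2 scale, was larger than that of 99.3% of tested genes. For comparison, the spread of GABARAPL2 was larger than that of 84.1%, that of GABARAP of 63.3% and that of MAP1LC3B of 39.5%. GABARAPL1 was thus the least reproducible of the ATG8 genes here, and neither treatment nor PBS library 3 marked its high libraries.

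**Figure D1:**
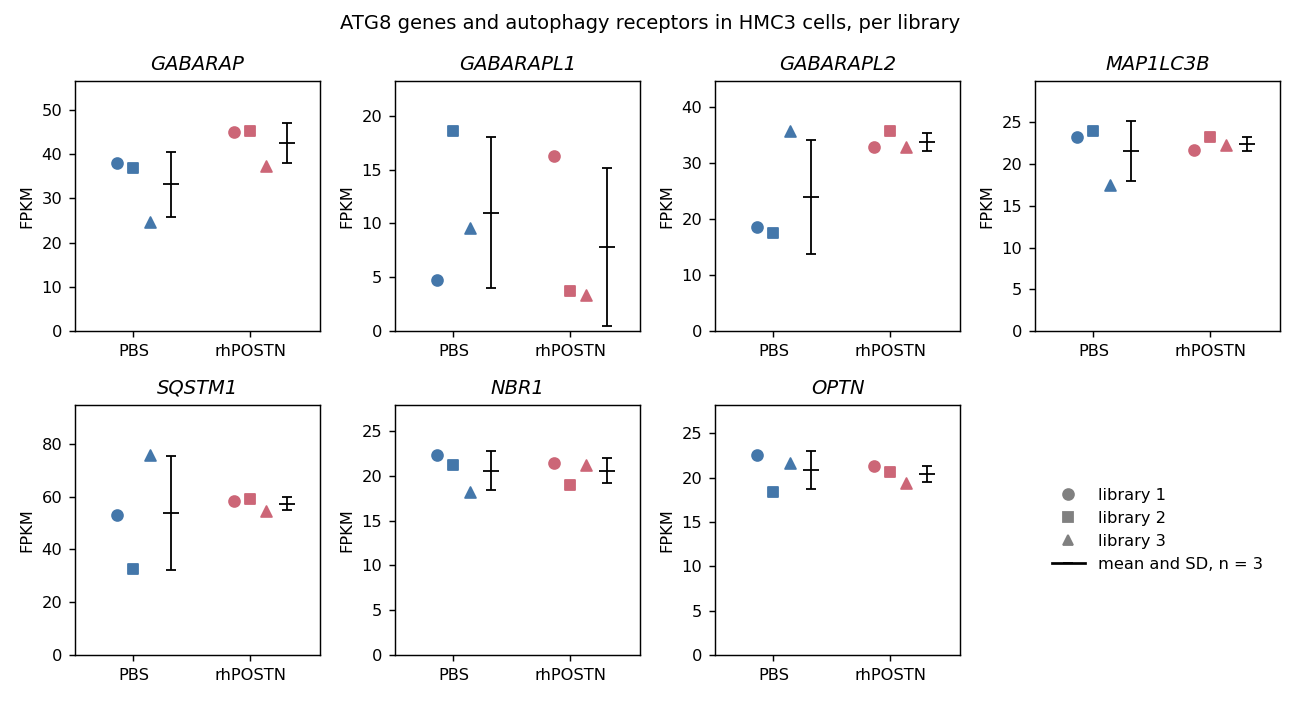
FPKM of the 7 genes in each of the 3 PBS and 3 rhPOSTN libraries, with 1 point per library and the group mean and SD marked. GABARAPL2 is low in PBS libraries 1 and 2 only, GABARAPL1 varies within each group, and NBR1 and OPTN stay between 18.2 and 22.6 FPKM.

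The 4 ATG8 genes together had 84.6, 97.0 and 87.6 FPKM after PBS and 115.7, 107.9 and 96.0 FPKM after rhPOSTN. The groups overlapped at PBS library 2, which held the highest GABARAPL1 level, and rhPOSTN library 3. The means were 89.7 ± 6.44 and 106.6 ± 9.91 FPKM (SD, n = 3 each). Without GABARAPL1, a choice made after its values were seen, the sum was 79.8, 78.4 and 78.0 FPKM after PBS and 99.5, 104.2 and 92.7 FPKM after rhPOSTN. These sums did not overlap, but they include GABARAPL2, which was picked for this direction, and GABARAP, whose split with AC120057.3 changed between libraries, so they are a description. PBS library 3 had nearly the same sum as PBS libraries 1 and 2 with a different make-up, since its lower GABARAP and MAP1LC3B levels were offset in the sum by its higher GABARAPL2 level.

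The share of GABARAPL2 in the ATG8 sum was highest in PBS library 3 and lowest in PBS library 2. GABARAPL2 held 22.0%, 18.2% and 40.8% of the sum after PBS and 28.4%, 33.1% and 34.4% after rhPOSTN. The ratio of GABARAPL2 to GABARAP was 0.491, 0.477 and 1.44 after PBS and 0.732, 0.790 and 0.883 after rhPOSTN. The ratio of GABARAPL2 to MAP1LC3B was 0.801, 0.736 and 2.05 after PBS and 1.52, 1.54 and 1.48 after rhPOSTN. In PBS libraries 1 and 2 GABARAPL2 was thus below both relatives, in PBS library 3 above both, and in the rhPOSTN libraries above MAP1LC3B and below GABARAP. The mean share of GABARAPL2 was 27.0% ± 12.1 after PBS and 32.0% ± 3.13 after rhPOSTN (SD, n = 3 each), a difference of 4.96 percentage points that lay within the spread of the PBS libraries. This difference rested on single libraries, being 11.9 points without PBS library 3, 0.534 points without PBS library 2 and 2.47 points without PBS library 1.

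**Figure D2:**
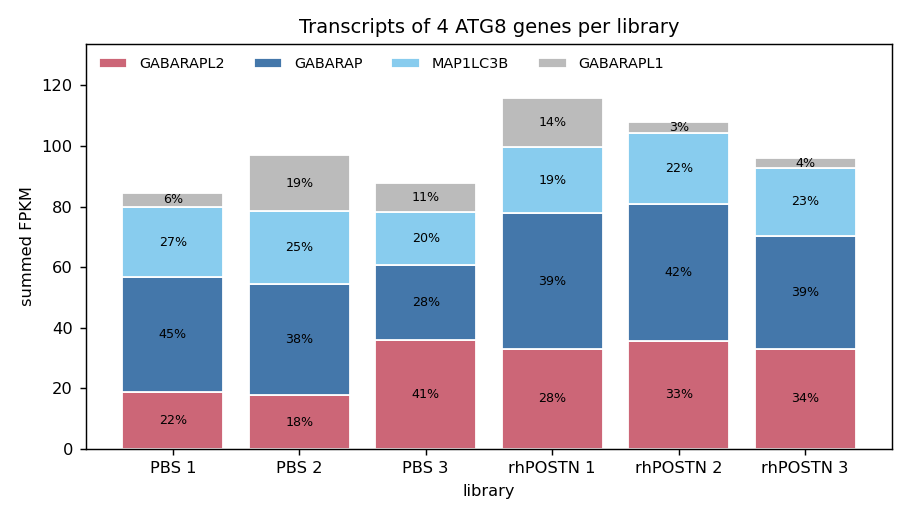
Stacked FPKM of the 4 ATG8 genes in each library, in order of library number within PBS and rhPOSTN, with the share of each gene printed in its segment. GABARAPL2 makes up 40.8% of the sum in PBS library 3, against 22.0% and 18.2% in PBS libraries 1 and 2.

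SQSTM1 encodes p62, which binds ubiquitinated cargo, forms condensates with it and also holds KEAP1, the inhibitor of the stress factor NRF2 (ENSG00000161011.19_3, chromosome 5 from 179233398 to 179265078, plus strand). Its level was 53.2, 32.5 and 75.9 FPKM after PBS and 58.2, 59.2 and 54.4 FPKM after rhPOSTN. The 3 rhPOSTN libraries lay close together and between PBS libraries 1 and 3, while the PBS libraries differed by up to 2.33-fold. The log2 difference was 0.17 ± 0.29 (SE; adjusted p = 0.951, limma), 0.45 ± 0.20 without PBS library 3 (adjusted p = 0.543, limma) and -0.15 without PBS library 2. SQSTM1 shared with GABARAPL2 a high value in PBS library 3 and a wide PBS group. Its coefficient of variation was 40.2% after PBS and 4.38% after rhPOSTN (42.5% and 4.75% for GABARAPL2). The narrow rhPOSTN group was not particular to them, since MAP1LC3B had 3.54% and OPTN 4.54% after rhPOSTN.

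NBR1, a receptor that works beside p62 in aggregate and peroxisome clearance, was steady (ENSG00000188554.13_2, chromosome 17 from 41322498 to 41363708, plus strand). Its level was 22.4, 21.2 and 18.2 FPKM after PBS and 21.5, 19.0 and 21.3 FPKM after rhPOSTN. PBS library 3 was again the lowest, and the group means were both 20.6 FPKM (SD 2.14 and 1.39). The log2 difference was 0.0014 ± 0.12 (SE; adjusted p = 0.998, limma), and -0.08 (adjusted p = 0.757, limma) without PBS library 3.

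OPTN encodes optineurin, a ubiquitin-binding receptor for damaged mitochondria and bacteria that is activated by TBK1 (ENSG00000123240.16_3, chromosome 10 from 13141449 to 13180308, plus strand). Its level was 22.6, 18.4 and 21.6 FPKM after PBS and 21.3, 20.6 and 19.5 FPKM after rhPOSTN. All rhPOSTN libraries lay within the PBS range, and PBS library 3 did not stand apart for this gene. The log2 difference was -0.02 ± 0.12 (SE; adjusted p = 0.977, limma), and 0.0027 (adjusted p = 0.994, limma) without PBS library 3.

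The balance between receptors followed SQSTM1. The ratio of SQSTM1 to NBR1 was 2.38, 1.53 and 4.16 after PBS and 2.71, 3.12 and 2.56 after rhPOSTN, whereas that of OPTN to NBR1 stayed between 0.868 and 1.19 in all 6 libraries. The 3 receptors together had 98.2, 72.2 and 115.7 FPKM after PBS and 101.0, 98.8 and 95.2 FPKM after rhPOSTN. PBS libraries 2 and 3 thus marked the lowest and the highest receptor sum.

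By level, SQSTM1 and GABARAP led, with SQSTM1 at rank 1 or 2 and GABARAP at rank 1 to 3 of the 7 genes in every library. GABARAPL2 moved between rank 7 in PBS library 2 and rank 2 in PBS library 3, and held rank 3 in all rhPOSTN libraries. MAP1LC3B, NBR1 and OPTN lay at ranks 3 to 6 with levels of 17.5 to 23.9 FPKM. MAP1LC3B stood above NBR1 and OPTN in every library except PBS library 3, where it was below both. The order of NBR1 and OPTN changed between libraries, and these level differences were not tested. GABARAPL1 lay at rank 5 to 7. Among all listed genes, the 6 genes other than GABARAPL1 stood above 79.5% to 96.6% of genes in every library, and GABARAPL1 above 32.4% to 80.6%.

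Across all genes, limma called 2 of 10982 tested genes at an adjusted p under 0.05, which is 0.0182%, and both were higher after rhPOSTN. Of the 6 genes other than GABARAPL2, 0 were called, with adjusted p from 0.951 to 0.998, and 0 had an unadjusted p under 0.05 (3.21% of all tested genes had). The lowest unadjusted p was 0.0954 by limma, for GABARAP. Without PBS library 3, 0.1% of genes were called at the adjusted threshold (0.0638% higher and 0.0365% lower) and 9.55% had an unadjusted p under 0.05, and among the 6 genes both counts were 0, with adjusted p from 0.543 to 0.994 by limma. Over the 16 alternative settings, adjusted p by limma ranged from 0.468 to 1.00 for GABARAP, from 0.805 to 1.00 for GABARAPL1, from 0.668 to 1.00 for MAP1LC3B, from 0.543 to 1.00 for SQSTM1, from 0.531 to 1.00 for NBR1 and from 0.646 to 1.00 for OPTN. The median log2 difference of the 6 genes was 0.03, against 0.06 for all tested genes, and -0.03 against 0.03 without PBS library 3. All 7 genes overlapped between the groups, where 11.7% of tested genes did not.

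**Figure D3:**
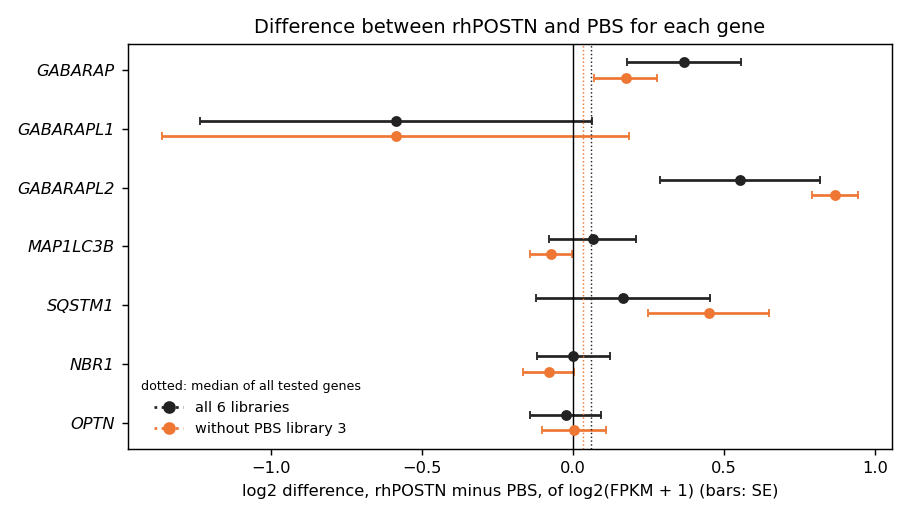
Log2 difference of rhPOSTN minus PBS in log2(FPKM + 1) for the 7 genes, with all 6 libraries and without PBS library 3, bars of 1 SE and dotted lines at the median of all tested genes. Differences of MAP1LC3B and NBR1 lie near 0, SQSTM1 moves from 0.17 to 0.45 when PBS library 3 is left out, and GABARAPL2, which was picked for its values, is shown without a test.

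The promoter of GABARAPL2 is shown because its values set it apart, with that of MAP1LC3B, the ATG8 gene on the same chromosome, for comparison. Both are 300 bases from RefSeq on GRCh38.p14, 250 before and 50 after the start, on the plus strand (chr16:75566129-75566428 and chr16:87392086-87392385). Capitals mark matches to the motifs searched.
GABARAPL2: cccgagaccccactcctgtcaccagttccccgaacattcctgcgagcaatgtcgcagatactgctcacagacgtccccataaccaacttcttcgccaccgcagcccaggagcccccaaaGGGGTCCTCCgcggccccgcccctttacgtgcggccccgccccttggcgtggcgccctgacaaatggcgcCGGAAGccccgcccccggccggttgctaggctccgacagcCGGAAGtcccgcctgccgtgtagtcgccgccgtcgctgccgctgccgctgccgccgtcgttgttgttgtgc
MAP1LC3B: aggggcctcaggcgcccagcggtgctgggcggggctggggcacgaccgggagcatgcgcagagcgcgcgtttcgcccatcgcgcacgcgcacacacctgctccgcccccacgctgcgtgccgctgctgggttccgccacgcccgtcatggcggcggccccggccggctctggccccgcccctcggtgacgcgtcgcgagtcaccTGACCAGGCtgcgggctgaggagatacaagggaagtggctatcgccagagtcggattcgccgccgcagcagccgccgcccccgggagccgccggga
The motifs were searched on both strands in the 11 promoters of the 7 genes, all of which matched the RefSeq table by symbol. They were CACGTG, the core of the element bound by TFEB, TGACNNNGC, the core of the antioxidant response element, TGTTTAC, a forkhead element, the NF-kB consensus, and CGGAAG, an ETS element that was added after the sequence was seen. The GABARAPL2 promoter held 1 NF-kB match and 2 CGGAAG matches, and that of MAP1LC3B held 1 TGACNNNGC match.

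In the promoters of the 7 genes, CACGTG and TGTTTAC had 0 matches, and TGACNNNGC matched in MAP1LC3B alone. The NF-kB consensus matched in GABARAPL2 and OPTN, and CGGAAG in GABARAPL2, SQSTM1 and NBR1. Counted by promoter, 3 of 11 held the NF-kB consensus, 3 of 11 CGGAAG and 1 of 11 TGACNNNGC. The OPTN promoters overlap and share the same NF-kB matches. Of all 35116 promoters of the same length, 7.26% held CACGTG, 13.3% TGACNNNGC, 3.42% TGTTTAC, 11.3% the NF-kB consensus and 19.5% CGGAAG. A match describes letters in this window and not a bound site.

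The genes most like GABARAPL2 over the 6 libraries were ranked by the root mean square difference of their centred log2(FPKM + 1) profiles, among 6794 genes with a mean of at least 5 FPKM. The 5 closest were SLC1A4, a neutral amino acid transporter (0.0856), LRRC42 (0.107), RFNG, a glycosyltransferase that modifies Notch (0.122), ZNF358 (0.129) and S100A4, a calcium-binding protein (0.131). SLC1A4 was at 4.06, 3.73 and 8.26 FPKM after PBS and 8.50, 7.82 and 8.64 FPKM after rhPOSTN, so PBS libraries 1 and 2 were low and PBS library 3 lay with the rhPOSTN libraries. The 5 genes were chosen for closeness to GABARAPL2, so their shared pattern follows from that choice and is a description. Among the other members SQSTM1 was closest (0.265, with 1.50% of ranked genes closer). OPTN followed at 0.414, NBR1 at 0.492, MAP1LC3B at 0.515 and GABARAP at 0.521, with 33.8%, 61.2%, 67.9% and 69.5% of ranked genes closer. GABARAPL1 was farthest at 1.07, with 99.2% of ranked genes closer. Most ranked genes were thus closer to GABARAPL2 than NBR1 and the other ATG8 genes were. Of the other 6 genes the receptor SQSTM1 was thus nearer to GABARAPL2 than any ATG8 gene was.

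**Figure D4:**
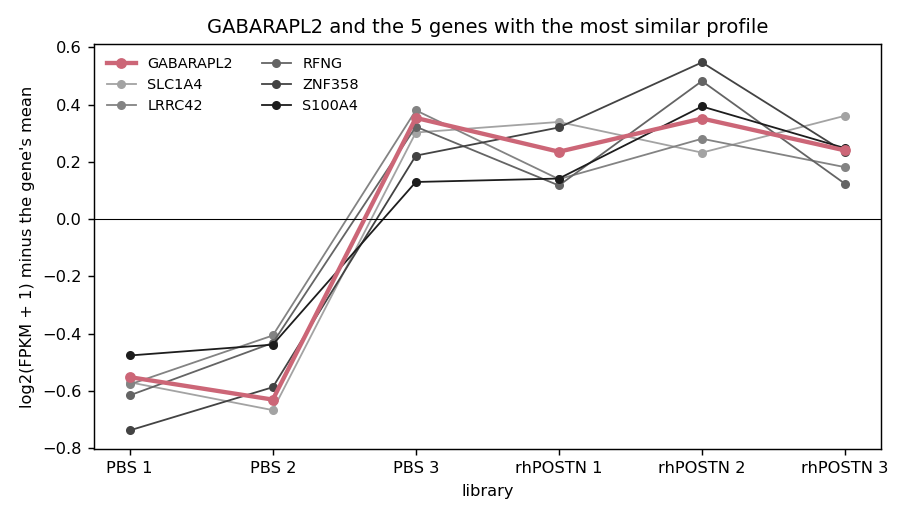
Centred log2(FPKM + 1) of GABARAPL2 and the 5 genes with the closest profiles in the 6 libraries; lines only join the points of a gene. All are lowest in PBS libraries 1 and 2, and PBS library 3 lies with the rhPOSTN libraries. This pattern follows from choosing the genes for closeness to GABARAPL2.

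The other genes of the pathway were taken from 10 lists of 98 genes, of which 93 were listed and 91 tested; the 3 genes of 1 list, other ATG8 genes, were not analysed here. In total 0 of the 91 were called at the adjusted threshold in either direction (background 0.0182%), with the lowest adjusted p at 0.951 by limma, and 1 had an unadjusted p under 0.05, which was lower after rhPOSTN (0.765% of all tested genes were lower and 2.45% higher by that rule). Without PBS library 3 the adjusted count was also 0 (lowest adjusted p = 0.200, limma), and 8 had an unadjusted p under 0.05, with 6 higher and 2 lower, where 7.07% of all tested genes were higher and 2.48% lower. The difference was positive in 61 genes and negative in 30, with a median of 0.09, whereas of all 10982 tested genes 6974 were positive with a median of 0.06. Without PBS library 3 the counts were again 61 and 30, with a median of 0.05, and 6459 of all 10969 tested genes were positive with a median of 0.03. A lean towards positive differences was thus shared by all tested genes, and the counts of the single lists below are a description. The groups did not overlap in 11 genes that were higher and 4 that were lower after rhPOSTN, where 8.94% and 2.76% of all tested genes did so. Differences named below did not pass the adjusted threshold.

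Of 11 genes that process and attach ATG8 proteins, 9 had a positive difference (median 0.09), and 8 did without PBS library 3 (median 0.12). ATG4A, a protease that primes ATG8 proteins, was at 2.68, 2.29 and 1.28 FPKM after PBS and 2.79, 2.86 and 2.89 FPKM after rhPOSTN, which did not overlap (log2 difference 0.35, and 0.14 without PBS library 3). ATG16L1, which directs the conjugation machinery to the membrane, was at 6.13, 3.21 and 9.52 FPKM after PBS and 7.42, 3.39 and 5.96 FPKM after rhPOSTN, and varied within each group (log2 difference -0.10, and 0.22 without PBS library 3). Of these 11 genes 0 were called.

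All 6 genes of the list of other ubiquitin-binding receptors had a positive difference (median 0.24), and 5 did without PBS library 3 (median 0.15). This list also holds the kinase TBK1 and the scaffold WDFY3, so these counts do not describe such receptors alone. TOLLIP, a receptor that binds ubiquitin through its CUE domain, was at 5.06, 5.86 and 14.3 FPKM after PBS and 10.7, 11.2 and 9.03 FPKM after rhPOSTN, with the same high PBS library 3 as GABARAPL2 and SQSTM1. Its log2 difference was 0.39, and 0.80 without PBS library 3 (adjusted p = 0.200, limma, with 0.0751 to 1.00 over the alternatives). TAX1BP1, which works with NBR1 on aggregates, was at 9.93, 9.22 and 8.71 FPKM after PBS and 9.61, 8.46 and 12.6 FPKM after rhPOSTN (0.11, and 0.07 without PBS library 3). Of 13 tested receptors for mitochondria, endoplasmic reticulum, ferritin and glycogen, 5 had a positive and 8 a negative difference (median -0.04), and 7 and 6 did without PBS library 3 (median 0.03). CCPG1, a receptor for the endoplasmic reticulum, had the largest positive one (0.23, and 0.52 without PBS library 3), from 4.12, 3.68 and 7.84 FPKM after PBS and 9.30, 4.86 and 4.68 FPKM after rhPOSTN. RTN3, another receptor for that organelle, had the largest negative one (-0.36, and -0.34 without PBS library 3).

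Of 4 tested ULK1 complex genes 2 had a positive difference (4 without PBS library 3), of 8 class III PI3-kinase genes 7 did (6 without it), and of 9 genes of membrane supply 7 did (7 without it). In the complexes that start the autophagosome, RB1CC1, the scaffold of the ULK1 complex, was at 13.2, 13.1 and 11.2 FPKM after PBS and 15.3, 14.4 and 15.1 FPKM after rhPOSTN, which did not overlap (log2 difference 0.24, and 0.17 without PBS library 3). ATG101, its partner in that complex, was at 14.9, 14.3 and 36.8 FPKM after PBS and 16.3, 19.5 and 15.6 FPKM after rhPOSTN, so the sign of its difference rested on PBS library 3 (-0.21 with it and 0.21 without it). ATG14, the subunit that directs the class III PI3-kinase complex to autophagy, had a difference of 0.58 (0.67 without PBS library 3) from 6.50, 3.25 and 5.90 FPKM after PBS and 6.51, 6.84 and 11.4 FPKM after rhPOSTN. In the same complex AMBRA1, a BECN1-binding scaffold, had the largest negative difference (-0.09, and 0.0092 without PBS library 3). Among genes of membrane supply, WDR45B, a phosphoinositide-binding WIPI protein, was at 29.5, 68.9 and 61.4 FPKM after PBS and 26.6, 23.4 and 25.0 FPKM after rhPOSTN. These groups did not overlap, the log2 difference was -0.98 ± 0.31 (SE; unadjusted p = 0.0174, adjusted p = 0.951, limma) and -0.83 without PBS library 3, and PBS library 1 was nearer to the rhPOSTN libraries than to PBS libraries 2 and 3. TMEM41B, a lipid scramblase, had the largest positive difference of that list (0.16, and 0.03 without PBS library 3).

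For fusion with the lysosome 6 of 14 genes had a positive and 8 a negative difference, and 7 and 7 did without PBS library 3. The largest positive one, 0.23 for the SNARE protein SNAP29, rested on that library and was 0.0055 without it, and the largest negative one was -0.10 for YKT6 (-0.11 without it). Of 14 tested transcription factors of autophagy genes and their regulators, 10 had a positive difference (11 without PBS library 3). FOXO3, a forkhead factor, was at 2.39, 4.93 and 4.01 FPKM after PBS and 5.25, 5.02 and 5.75 FPKM after rhPOSTN, which did not overlap (log2 difference 0.44, and 0.50 without PBS library 3), and RPTOR, a subunit of mTORC1, had the largest negative difference (-0.14, and -0.05 without it). TFEB, chosen here after its values were seen, was at 1.22, 1.20 and 1.48 FPKM after PBS and 1.63, 1.79 and 1.58 FPKM after rhPOSTN (log2 difference 0.22, and 0.27 without PBS library 3). Of 12 NRF2 target genes, SQSTM1 not counted, 9 had a positive difference (median 0.13), which fell to 6 of 12 without PBS library 3 (median 0.012). HMOX1, the haem-degrading enzyme, was at 18.6, 22.7 and 12.1 FPKM after PBS and 17.3, 22.1 and 22.5 FPKM after rhPOSTN (log2 difference 0.23, and -0.0053 without PBS library 3). TXNRD1, thioredoxin reductase, was at 96.3, 95.2 and 77.2 FPKM after PBS and 99.2, 43.1 and 94.0 FPKM after rhPOSTN, with a single low library in the rhPOSTN group (log2 difference -0.27, and -0.37 without PBS library 3).

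**Figure D5:**
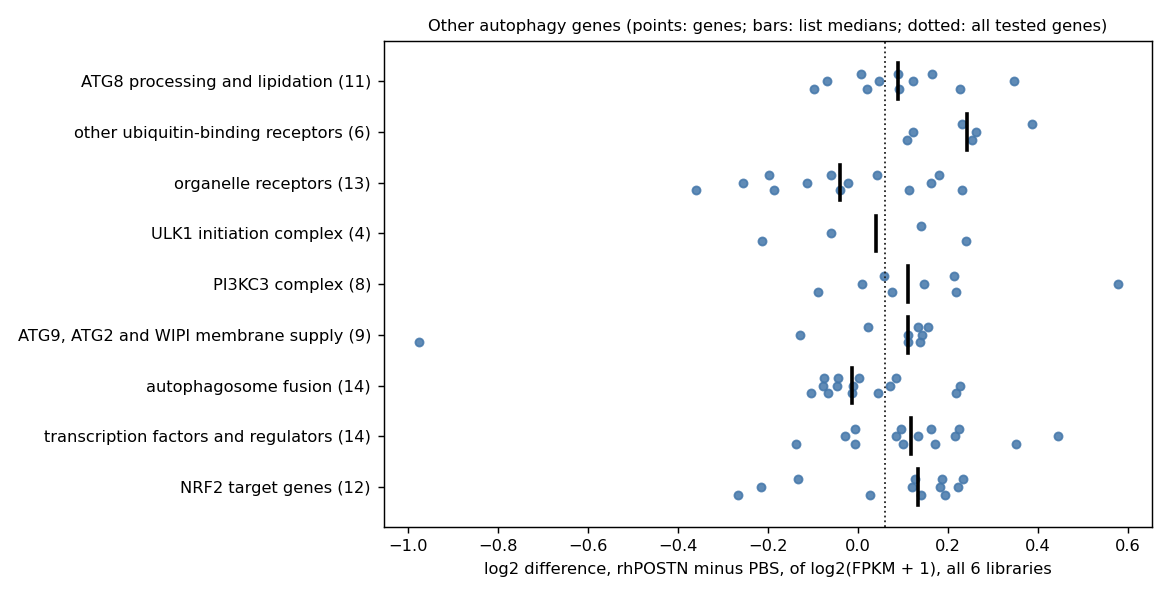
Log2 difference of rhPOSTN minus PBS for each tested gene of the 9 autophagy lists, 1 point per gene, with the median of each list marked and a dotted line at the median of all tested genes. The list medians lie between -0.04 for organelle receptors and 0.24 for the list of other ubiquitin-binding receptors, which includes TBK1 and WDFY3. WDR45B is the lowest point at -0.98.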

How the data were processed

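RNA-seq of HMC3 cells gave 6 libraries, 3 per treatment, grouped by the treatment label. The authors captured mRNA on oligo(dT) beads, built libraries with a stranded KAPA kit, trimmed with Cutadapt, aligned with HISAT2, estimated abundance with StringTie and derived FPKM per gene with Ballgown. The labels also name rRNA removal. The sources used here give neither tool versions nor whether the estimation used the strand. The submitters' processing notes name GRCh37, the build of all deposited coordinates. The deposited values are FPKM, and the header of the rhPOSTN table names no unit, which was taken from the PBS table and the methods. Every column of library values was used. FPKM holds no depth, so no counting interval is given and precision rests on the 3 libraries per group.

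Values were analysed as log2(FPKM + 1), which understates changes of low genes. Genes with a mean of at least 1 FPKM in at least 1 group were tested (10982 genes) with limma 3.58.1 in R 4.3.3 (eBayes with trend, no covariate), with Benjamini-Hochberg adjustment over all tested genes at 0.05. The procedure was tested on simulated data. GABARAPL2 entered the fit but has no p-value here. Members and lists were chosen with earlier results of these data known. Named genes were the 7 members, the tested gene with the largest positive and the largest negative difference in each list, any list gene at an adjusted p under 0.05, the 5 genes nearest to GABARAPL2 in profile, and genes that overlap a member. Transcripts and coding sequences came from GENCODE 29 and promoters from RefSeq. The RefSeq promoters are on GRCh38.p14 and the GENCODE transcripts on GRCh38, so their coordinates were not compared with those of the files. The alternatives changed the pseudocount to 0.1 or 5, dropped the filter or raised it to 5 FPKM, scaled libraries by their sum or by the median of ratios, ran eBayes without trend or robustly, weighted the libraries, blocked on the library number, or left out each library in turn. MAP1LC3A, MAP1LC3B2 and MAP1LC3C were not analysed here. A result on 1 further marker gene is not reported here.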

Additional observations from a re-analysis of the deposited data

How the results depend on the processing

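Under all 16 alternatives, 0 of the 6 genes other than GABARAPL2 and 0 of the 91 pathway genes were called. The count of 2 called genes among all genes fell to 1 with a pseudocount of 0.1, with a filter at 5 FPKM and with the library number as a replicate block, and rose to 37 with library weights (23 higher, 14 lower). With each library left out in turn it ranged from 1 to 11, the highest without PBS library 3. Scaling by the median of ratios moved the median of all genes from 0.06 to -0.0089 and reversed MAP1LC3B (-0.013) and NBR1 (-0.077). Library weights reversed MAP1LC3B (-0.057), NBR1 (-0.091), ATG16L1 (0.0035) and ATG101 (0.16). With each library left out in turn the log2 difference changed sign for MAP1LC3B (-0.072 to 0.14), SQSTM1 (-0.15 to 0.45), NBR1 (-0.080 to 0.061), OPTN (-0.11 to 0.033), ATG16L1 (-0.44 to 0.22), ATG101 (-0.44 to 0.21), AMBRA1 (-0.17 to 0.0092), CCPG1 (-0.048 to 0.52), TAX1BP1 (-0.036 to 0.22), HMOX1 (-0.0053 to 0.42) and TXNRD1 (-0.48 to 0.11), and the cause was not tested. The signs of GABARAP and GABARAPL1 held under every alternative. All alternatives started from the same FPKM, so none varied the split of reads between GABARAP and AC120057.3. The difference of GABARAPL2 lay between 0.37 and 0.87, and that of its share of the ATG8 sum between 0.534 and 11.9 percentage points. GABARAPL2 was picked for this direction, so its constant sign is a description and no evidence of a stable effect. Deviations of same-numbered libraries from their group means correlated at -0.044, -0.19 and -0.42. With 3 libraries per group and PBS library 3 standing apart, these values cannot show whether equal numbers mark paired libraries. With 3 libraries per group of unknown depth, differences such as that of GABARAPL1 (SE 0.65) could not be resolved.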

Other observations

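Single libraries stood apart in other autophagy genes as well, here chosen after their values were seen. BNIP3L, a receptor for mitochondria, and TXNRD1 were both lowest in rhPOSTN library 2. NFE2L2, which encodes NRF2, was at 10.6, 4.38 and 8.40 FPKM after PBS and 5.22, 14.4 and 5.08 FPKM after rhPOSTN, so its lowest and highest libraries lay in different groups and the groups overlapped. KEAP1, which binds SQSTM1 and restrains NRF2, was at 6.04, 5.62 and 10.2 FPKM after PBS and 6.88, 7.60 and 6.59 FPKM after rhPOSTN, with its highest value in PBS library 3, the library in which SQSTM1 was also highest.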
